A study of Arabidopsis thaliana with 15 samples.

Results

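Cells of the root epidermis, sorted together with the lateral root cap, were compared with cells of the cortex, the layer directly beneath the epidermis. The members were the 6 arrays whose titles name these populations, 3 for each, out of 15 arrays covering 5 root populations. Epidermal cells came from the marker line pWER::GFP and cortical cells from pCOR::GFP, both in ecotype Columbia of Arabidopsis thaliana. All 6 samples came from seedlings grown for 5 days and then moved for 3 h to medium lacking sulfur, so the comparison was between cell layers under the same short sulfur deficiency and had no arm on full medium. Roots were digested to protoplasts before sorting by fluorescence, and RNA was amplified in 2 cycles and hybridised to Affymetrix ATH1 arrays. Each population is defined by the promoter that drives GFP: the first sort joins hair cells, non-hair cells and lateral root cap cells in one sample, and a gene of any of them counts for the whole sort. The labels do not state whether the 3 replicates of a population were grown, digested or sorted apart, and the p-values below therefore rest on a spread that could be purely technical.

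The epidermis is the outermost layer of the root proper. Its hair cells extend tubular outgrowths that take up water and ions, its cells divide in the meristem under the cover of the lateral root cap, and cap cells secrete wall-degrading enzymes and die or detach as the root advances. The cortex is ground tissue: it arises from the same stem cells as the endodermis, and solutes pass through it between the surface and the vasculature. Because each value is a summed signal from a sorted population, a lower share of cells of a type and less RNA per cell cannot be told apart.

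Levels are given as log2(signal + 16) after quantile normalization over the 15 arrays, and differences as epidermis with lateral root cap minus cortex on that scale, which understates changes of dim genes: a signal of 0 lies at 4. A probe set was called when the limma test gave an adjusted p under 0.05 and the difference was at least 1 in size. Epidermal replicate 2 stood apart from its group, so the fit was run with all 6 arrays, as labelled, and again without it; values are from the first fit unless the second is named, and the counts of gene groups are given from both. Across the tested probe sets its levels correlated at r = 0.830 and 0.824 with epidermal replicates 1 and 3, which correlated with each other at 0.964, and its nearest array was stele replicate 2 at 0.974. Conversely, the array labelled stele replicate 1 was nearest to epidermal replicate 3, at 0.964, against 0.853 with the closest array of its own group. Both arrays thus went against their labels, and whether the labels of epidermal replicate 2 and stele replicate 1 were exchanged was not tested; if they were, each value from all 6 arrays includes a stele array. The 3 cortex arrays correlated at 0.962 to 0.970 with each other and at 0.664 to 0.729 with the epidermal arrays. Array medians of the deposited signal were 57.3, 80.9 and 55.6 in the epidermal samples, against 47.9, 46.1 and 49.5 in the cortex, and the exact two-sided permutation test gave p = 0.1, the smallest that 3 against 3 arrays allow. The 3' to 5' signal ratio of actin, a sign of RNA length, was 9.40, 28.3 and 9.47 in the epidermal samples, against 17.7, 13.4 and 14.6 in the cortex. The same ratio of GAPDH was 1.04, 1.21 and 1.09 in the epidermal samples, all below 1.31, 1.44 and 1.60 in the cortex. The part of RNA length in the results was not tested.

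Of 15453 tested probe sets, 2623 (17%) were higher and 2667 (17.3%) were lower in epidermis with lateral root cap than in cortex with all 6 arrays, 34.2% in all, with a median difference over all probe sets of 0.00. Without epidermal replicate 2, 3257 (21.1%) were higher and 3066 (19.8%) lower, 40.9% in all. Among the 8484 named genes, against which the counts of gene groups below can be read, 17.4% were higher and 16.4% lower with all 6 arrays, and 21.9% and 18.4% without replicate 2. The fits shared 2454 higher and 2476 lower probe sets and had 0 with opposite calls. A further 803 higher and 590 lower probe sets were called only without replicate 2, and 360 only with it. The 2 groups did not overlap in 54.3% of probe sets with all 6 arrays and in 71.5% without replicate 2. The median SD among replicates was 0.42 in the epidermal group and 0.23 in the cortex, and 0.22 in the epidermal group without replicate 2.

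**Figure D1:**
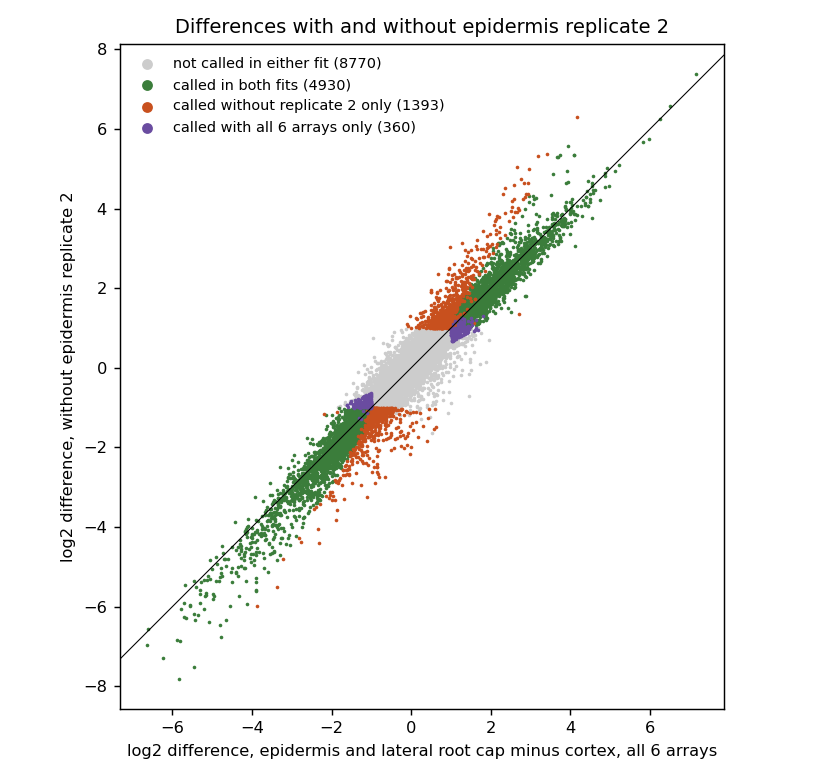
Log2 difference of each tested probe set, epidermis with lateral root cap minus cortex, with all 6 arrays on the horizontal axis and without epidermal replicate 2 on the vertical axis; colours give the calls in the fits and the line marks equality. Most called probe sets lie near the line, and the 803 higher and 590 lower probe sets called only without replicate 2 lie farther from 0 on the vertical than on the horizontal axis.

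The labels were set against marker genes first. Root hair genes were high in the epidermal sort on all 3 of its arrays. EXPA7, an expansin that loosens the wall of the growing hair, had 8.05, 8.41 and 8.68 in epidermal samples, against 6.52, 6.24 and 6.94 in cortex samples, a difference of 1.82 ± 0.29 (SE, adjusted p = 0.0020). The expansin EXPA18 had 8.48, 8.63 and 8.99 in the epidermal sort, against 6.98, 6.44 and 6.12 in cortex, and the hair peroxidase gene AT1G30870 had 10.27, 11.03 and 11.06, against 7.99, 7.61 and 8.22. No epidermal value of these genes overlapped a cortical one, and replicate 2 lay among its group. The groups also did not overlap in 54.3% of all tested probe sets. All 3 tested of the 24 listed root hair genes were called higher in both fits, with a median difference of 2.19. EXPA7 was also at 8.05 on the array labelled stele replicate 1, which was nearest to an epidermal array, and at 8.56 on stele replicate 2, which was nearest to epidermal replicate 2, while stele replicate 3 had 5.78.

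Root cap genes were high on epidermal replicates 1 and 3, and AT5G51470 and AT1G65570 were near cortical levels on replicate 2. AT5G51470, of the GH3 family of amino acid conjugating enzymes, had 9.91, 5.04 and 9.83 in epidermal samples, against 4.09, 4.17 and 5.33 in cortex samples. Its level on replicate 2 lay within the cortical range, and its call at 3.73 (adjusted p = 0.038) ended with any single array other than replicate 2 left out. AT1G65570, the root cap polygalacturonase, had 9.19, 4.82 and 9.61 in the epidermal sort, against 4.76, 7.0 and 5.65 in the cortex, and was not called with all arrays (2.07, adjusted p = 0.20) but differed by 3.60 without replicate 2 (adjusted p = 2.1e-05). AT4G04460, the aspartic protease PASPA3 of maturing root cap cells, was high on all 3 arrays with 9.46, 9.36 and 10.40, against 6.48, 6.58 and 7.17 (difference 3.00, adjusted p = 0.00053). This gene was also at 9.63 and 10.33 on stele replicates 2 and 3, above its columella levels of 8.01 to 9.06. Its level on epidermal replicate 2 therefore does not show root cap cells there. The serine carboxypeptidase-like gene scpl48 had 11.50, 10.49 and 12.05, against 8.85, 9.32 and 9.43. Of 6 tested root cap genes, 4 were higher with all 6 arrays and 6 without epidermal replicate 2. The count was 2 when epidermal replicate 1, cortex replicate 1 or cortex replicate 2 was left out instead. Their summed signal was 5249, 2168 and 7591 in the epidermal samples, against 571, 821 and 912 in the cortex.

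All 4 tested cortex genes were lower in the epidermal sort in both fits and under all the alternatives tried, with a median difference of -4.31. AT1G62510, a small protein of the lipid transfer and seed albumin type, had 4.42, 4.16 and 4.13 in epidermal samples, against 10.96, 10.52 and 11.02 in cortex samples. That was a difference of -6.60 ± 0.25 (SE, adjusted p = 3.0e-05), and its epidermal values lay close to the level of no signal. AT3G21670, a nitrate transporter of the NPF family, had 4.49, 4.40 and 4.36, against 8.66, 9.23 and 8.89. AT1G09750, an aspartyl protease, had 5.50, 5.08 and 6.55, against 10.14, 9.70 and 9.62. JKD, the zinc finger protein that helps set the ground tissue layers, had 4.46, 5.44 and 4.42, against 7.60, 7.49 and 7.13. On the endodermis arrays JKD was at similar levels to the cortex, 6.89, 7.96 and 7.21. AT1G62510, AT3G21670 and AT1G09750 were lower there than in the cortex, at most 7.86, 7.0 and 7.72. The summed cortex signal was 47.0, 52.3 and 89.3 in epidermal samples, against 3653, 3018 and 3419 in cortex samples.

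Of 3 tested genes of the endodermis, the inner neighbour of the cortex, 2 were lower in the epidermal sort with all arrays and 3 without replicate 2, which had the highest epidermal level of each. GSO1, the receptor kinase that checks the sealing of the Casparian strip, had 5.64, 8.96 and 5.64 in epidermal samples, against 10.13, 10.41 and 10.37 in cortex samples. Its difference was -3.56 with all arrays (adjusted p = 0.010) and -4.67 without replicate 2. AT1G61590, a cytoplasmic kinase of the same pathway, had 4.19, 8.96 and 4.30, against 5.52, 6.71 and 6.72. Replicate 2 was above the cortex for this gene, and the difference was -0.50 with it (adjusted p = 0.76) and -2.07 without it (adjusted p = 0.0015). AT4G28100 had 5.32, 6.07 and 5.55, against 7.81, 7.46 and 6.84. The summed signal of the 3 tested endodermis genes, of 14 listed, was 60.1, 1015 and 68.5 in the epidermal sort, against 1341, 1596 and 1499 in the cortex; GSO1 was higher still on the endodermis arrays, with a lowest level of 11.70. Of 17 listed stele genes only LHW was tested, with 8.60, 9.98 and 7.87 in the epidermal sort, against 6.60, 7.48 and 7.24 in the cortex. The part of endodermal and stele RNA in the results was not tested. On epidermal replicates 1 and 3, AT1G61590 lay close to the level of no signal.

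**Figure D2:**
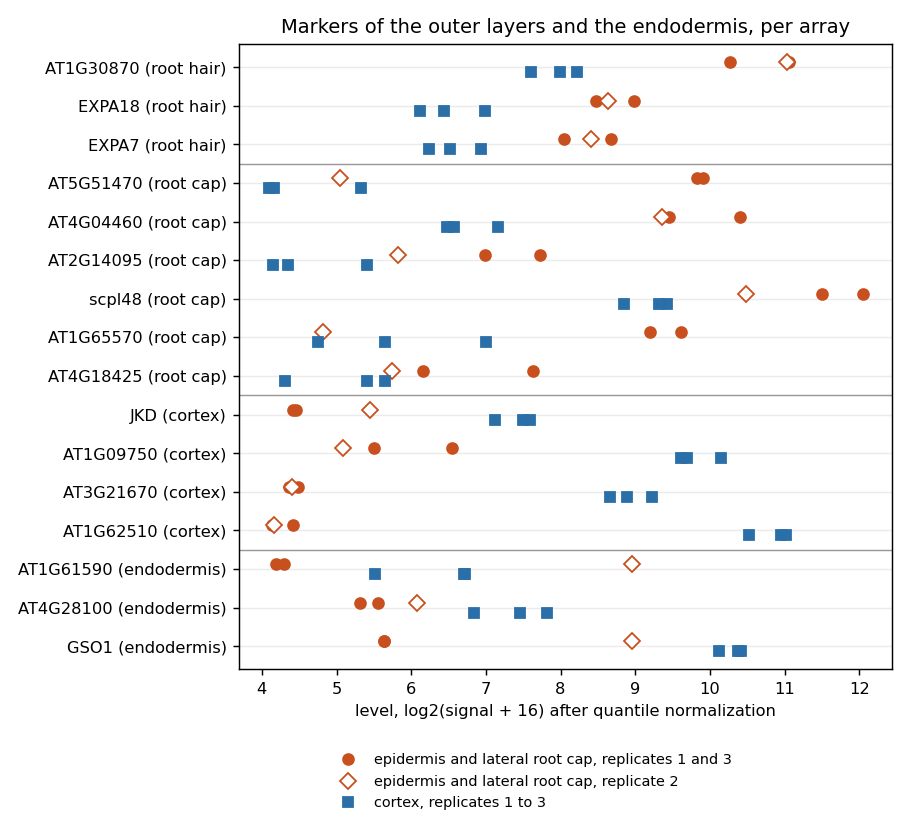
Level of each tested marker gene on each array, as log2(signal + 16); orange circles are epidermal replicates 1 and 3, open diamonds epidermal replicate 2, and blue squares the 3 cortex arrays. Root hair genes stand to the right and cortex genes to the left in the epidermal sort on all its arrays, while replicate 2 departs from its group for AT5G51470, AT1G65570, AT1G61590 and GSO1.

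The most uniform difference was in ribosome biogenesis. The genes for the factors that process ribosomal RNA and assemble the subunits in the nucleolus were all higher in epidermis with lateral root cap: 19 of 19 tested factors, of 32 listed, were called higher in both fits, against 17.4% of all named genes with all 6 arrays. That count stayed at 19 under each alternative setting and with any single array left out. The median difference was 3.57 with all arrays and 3.37 without replicate 2, against 0.00 and 0.04 over all tested probe sets. The list includes genes already known from earlier results of these data to be low in the cortex, so its direction is not independent evidence.

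AT3G12860, a Nop56-type core protein of the particles that methylate ribosomal RNA, had 10.41, 10.85 and 9.93 in epidermal samples, against 4.51, 4.28 and 4.47 in cortex samples. The difference was 5.98 (95% confidence interval 5.32 to 6.64, adjusted p = 4.4e-05), a 63.0-fold difference in signal + 16. AT2G40360, the homologue of BOP1 of the large subunit pathway, had 12.03, 12.41 and 10.73, against 7.66, 6.99 and 7.02. Its partner gene AT5G14520, the pescadillo homologue, had 11.30, 12.08 and 10.78, against 7.09, 7.22 and 7.33. In both genes the lowest epidermal array lay over 3 units above the highest cortical one. AT3G18600, a DEAD-box RNA helicase, differed by 4.87, AT1G79150, a NOC3-type assembly factor, by 4.54, and AT1G52930, a BRX1-type factor, by 4.38. The smallest differences in the list were those of AT5G08420, a KRR1-type factor of the small subunit, at 1.63, and of AT3G15460, a second BRX1-type gene, and AT1G42440, a TSR1-type factor, both at 1.82. Outside the list but among the 15 genes with the largest positive differences were AT3G03920 (4.45), a GAR1-type protein of the particles that make pseudouridine, and AT4G12600 (4.43), of the same L7Ae family as other small nucleolar proteins. Levels of AT3G12860 in the other populations were 6.20 to 6.41 in the columella, 5.90 to 8.74 in the endodermis and 9.67 to 11.10 in the stele, so the cortex held the lowest levels of the 5 populations.

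**Figure D3:**
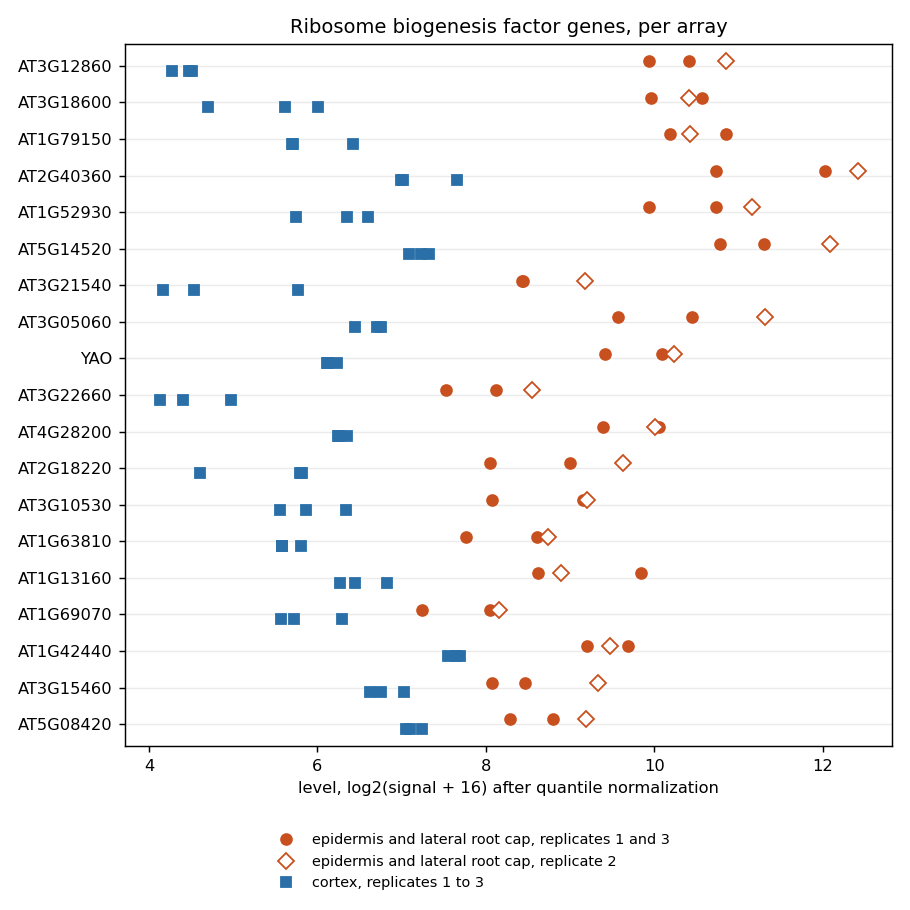
Level of each of the 19 tested ribosome biogenesis factor genes on each array, as log2(signal + 16), ordered by their difference; orange circles and open diamonds are the epidermal arrays, with replicate 2 as the diamond, and blue squares are the cortex arrays. No gene has overlapping groups, and among all tested probe sets 54.3% have none. Replicate 2 sits among or above the other epidermal arrays for most of the 19 genes.

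Cell division genes followed the same direction. AUR2, an Aurora kinase of the mitotic spindle and cell plate, had 7.89, 8.24 and 7.91 in epidermal samples, against 4.92, 4.20 and 4.10 in cortex samples (difference 3.60, adjusted p = 0.00021). AUR1, its close relative, had 7.50, 8.32 and 7.62, against 5.56, 5.38 and 5.26. The third tested gene of the 12 listed, AT4G39630, differed by 1.93 (adjusted p = 0.0023). All 3 were called higher in both fits. AUR2 was at 7.69 to 8.93 on every array of the columella, endodermis and stele, and only the cortex arrays were below 5. Of 6 tested histone genes, HTB1 was called with all arrays, with 8.64, 10.48 and 8.97 in the epidermal sort, against 8.14, 7.09 and 7.94 in the cortex; its difference of 1.64 became 1.08 without replicate 2, and its call ended when epidermal replicate 3 or any single cortex array was left out. Without replicate 2, HTB11 was called lower at -1.02.

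Other genes with the largest positive differences came from several processes. DI21, a gene known from drought-treated plants, had 11.26, 11.50 and 10.83 in epidermal samples, against 6.85, 5.89 and 7.0 in cortex samples. AT5G48940, a leucine-rich repeat receptor kinase that perceives root meristem growth factor peptides, had 9.37, 9.45 and 8.91, against 5.41, 5.55 and 4.27. AT2G28600 differed by 4.93, AT4G28450 by 4.57, AT2G17670 and AT3G59670 by 4.56 each and AT1G72090 by 4.44. All these genes kept their call under every alternative.

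UDP-glucosyltransferases, which attach glucose to hormones, phenolics and other small molecules, included 18 lower and 3 higher genes among 37 tested in the epidermal sort, and 17 lower and 6 higher without replicate 2. The median difference of the family was -0.64. The count of lower genes was 13 to 17 when any single array was left out, and that of higher genes was 1 without epidermal replicate 3, cortex replicate 1 or cortex replicate 2. UGT84A1, which glucosylates hydroxycinnamic acids, had 4.24, 5.51 and 4.19 in epidermal samples, against 10.24, 10.35 and 10.00 in cortex samples (difference -5.55, adjusted p = 9.9e-05). UGT76E12 had 5.24, 5.39 and 4.51, against 9.13, 9.70 and 9.54. UGT76C2, which inactivates cytokinins by glucosylation, had 5.83, 6.73 and 4.89, against 8.93, 9.58 and 9.44. UGT76B1, which glucosylates salicylic acid and isoleucic acid, was abundant in both layers with 9.07, 10.53 and 9.80, against 12.50, 12.75 and 12.49. UGT74B1, of glucosinolate synthesis, differed by -1.99 (adjusted p = 0.0057). The 3 higher members, chosen here after their values were seen, were UGT73C7 (1.97), UGT73D1 (1.71) and UGT78D1 (1.39).

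Cytochromes P450, which oxidise many of the same classes of compounds, had 6 lower and 0 higher genes among 12 tested with all arrays. Without replicate 2 there were 6 lower and 2 higher. CYP71B34 had 4.95, 5.52 and 4.60 in epidermal samples, against 9.74, 10.34 and 10.17 in cortex samples (difference -5.06, adjusted p = 7.4e-05). Its relatives CYP71B26, CYP71B29 and CYP71B28 differed by -3.75, -3.0 and -2.11. CYP84A4, which takes part in the synthesis of arabidopyrones from phenylpropanoids, had 5.93, 6.89 and 6.36, against 8.27, 8.06 and 7.62. Only 24 of 257 listed P450 genes had a named probe set, 8 of the 12 tested ones are of the CYP71B subfamily, and the family count rests on those. Glutathione transferases, which conjugate glutathione to reactive compounds, had 5 lower and 0 higher genes among 10, and 6 lower and 1 higher without replicate 2. GSTL3 had 5.07, 6.45 and 5.78 in the epidermal sort, against 8.45, 8.60 and 8.67 in the cortex, and GSTU16 had 5.39, 5.33 and 5.19, against 7.47, 7.55 and 6.94. GSTU26 was abundant and differed by -1.28, with 10.51, 10.54 and 10.52, against 11.74, 11.91 and 11.75. The count of lower transferases was 3 without epidermal replicate 1 or without cortex replicate 3.

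Further genes with the largest negative differences were of several kinds. AT2G45180 and AT4G22460, of the lipid transfer protein type, had 5.15, 5.12 and 5.71 and 5.20, 6.05 and 5.36 in epidermal samples, against 10.99, 10.72 and 10.62 and 11.02, 10.77 and 10.75 in cortex samples. AT5G42250, an alcohol dehydrogenase, had 6.76, 7.26 and 7.17, against 12.06, 12.57 and 12.37, among the highest cortical levels of the named genes. AT5G59540 and AT1G06640, of the 2-oxoglutarate-dependent oxygenases, differed by -5.31 and -4.97. AT3G32030, a terpene synthase, differed by -5.65, though its probe set can also detect related genes. PMEPCRF, a pectin methylesterase, had 5.99, 7.16 and 5.05, against 10.86, 11.40 and 11.41. AT1G13930, AT1G27030 and AT2G23910 differed by -5.80, -5.08 and -4.98, with epidermal replicate 2 above its group at 8.34, 9.38 and 8.42. AT5G57785 differed by -5.21, and its 3 epidermal values of 5.35, 5.46 and 4.80 were close together.

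**Figure D4:**
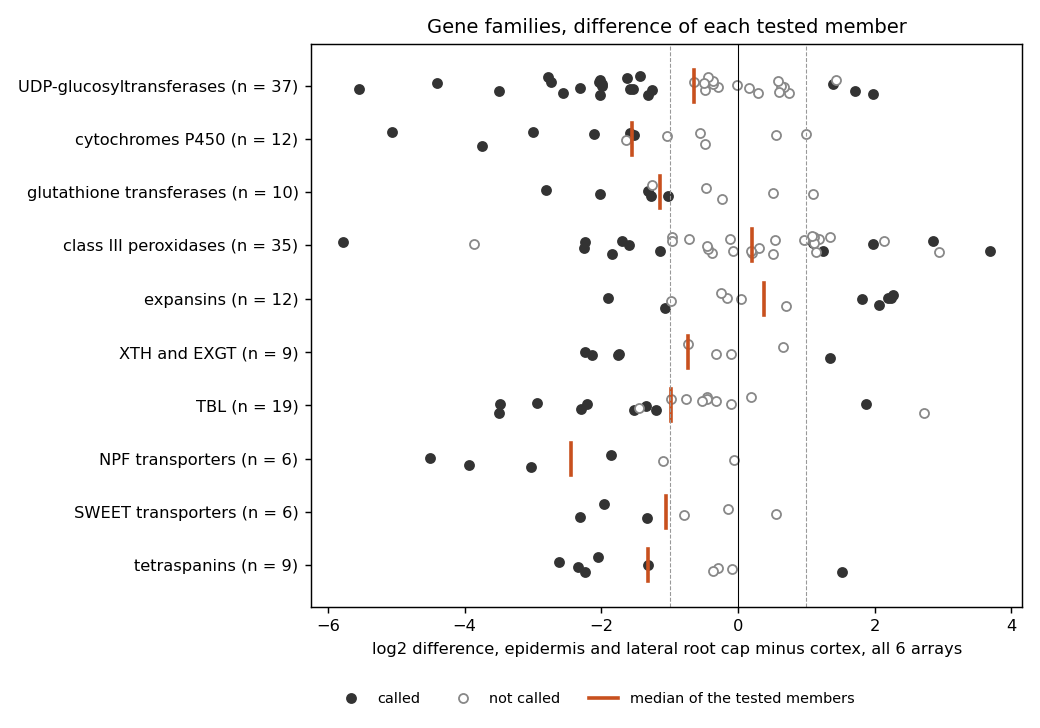
Log2 difference of each tested member of 10 gene families, epidermis with lateral root cap minus cortex, with all 6 arrays; filled points are called, open points are not, the orange bar is the median of the tested members, and dashed lines mark differences of 1 in size. UDP-glucosyltransferases, cytochromes P450, NPF transporters and class III peroxidases extend to the left past -4. Called members lie on both sides for UDP-glucosyltransferases, class III peroxidases, expansins, xyloglucan-modifying enzymes, the TBL family and tetraspanins.

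Most of the few tested nuclear genes of photosynthesis were higher in the cortex. Of 8 tested, out of 68 listed, 7 were lower in the epidermal sort in both fits. Among all named genes 16.4% were lower with all 6 arrays. The median difference of the 8 was -2.59, and the other listed genes were not tested. RCA, the activase of Rubisco, had 4.96, 5.63 and 5.01 in epidermal samples, against 7.97, 8.23 and 8.31 in cortex samples (difference -2.97, adjusted p = 0.00027). LHCB4.1 and LHCB4.2, antenna proteins of photosystem II, had 5.33, 5.28 and 4.42 and 5.67, 5.16 and 4.53, against 7.67, 7.69 and 7.72 and 7.82, 7.91 and 7.92. PSAN and PSAE-1, subunits of photosystem I, differed by -2.62 and -2.56. LHCB4.3 was the exception at -0.06 (adjusted p = 0.93), with levels of 4.55 to 5.89 over the 6 arrays. RCA was at 4.82 to 5.58 on the columella, endodermis and stele arrays, so that the cortex was the highest of the populations.

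Genes encoded in the plastid genome did not move as a block. RNA polymerase and ribosome genes had 9 higher and 0 lower among 17 tested. Those of the photosystems and the cytochrome b6f complex had 0 higher and 4 lower among 24. Of all named genes, 17.4% were higher and 16.4% lower, so the 4 lower of 24 were near the share of all genes. The polymerase subunit gene rpoC1 had 10.10, 10.49 and 9.97 in epidermal samples, against 7.91, 7.41 and 7.90 in cortex samples (difference 2.45, adjusted p = 0.00037). The ribosomal protein genes rpl16 and rps2 had 11.39, 11.47 and 10.77 and 9.53, 9.90 and 9.12, against 9.05, 9.25 and 9.26 and 7.91, 7.58 and 7.27. The ATP synthase gene atpH differed by 2.05 and the NADH dehydrogenase-like gene ndhD by 1.23. On the lower side petB, of the cytochrome b6f complex, had 8.57, 10.33 and 9.18, against 10.60, 10.83 and 10.86 (difference -1.40, adjusted p = 0.029), and its call ended with any single array other than epidermal replicate 2 left out. Without epidermal replicate 2 the counts were 6 higher polymerase and ribosome genes and 7 lower photosystem and b6f genes. The 9 became 6 also when any single cortex array was left out, and the 4 became 0 without epidermal replicate 1, 2 without epidermal replicate 3 and 1 without any single cortex array. With the deposited scaling only 1 photosystem or b6f gene was lower, while the polymerase and ribosome genes stayed at 9 higher. The count of lower photosystem and b6f genes thus changed with the scaling as well as with single arrays. The difference between these plastid groups was not tested, and the split into groups was made after values were seen.

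**Figure D5:**
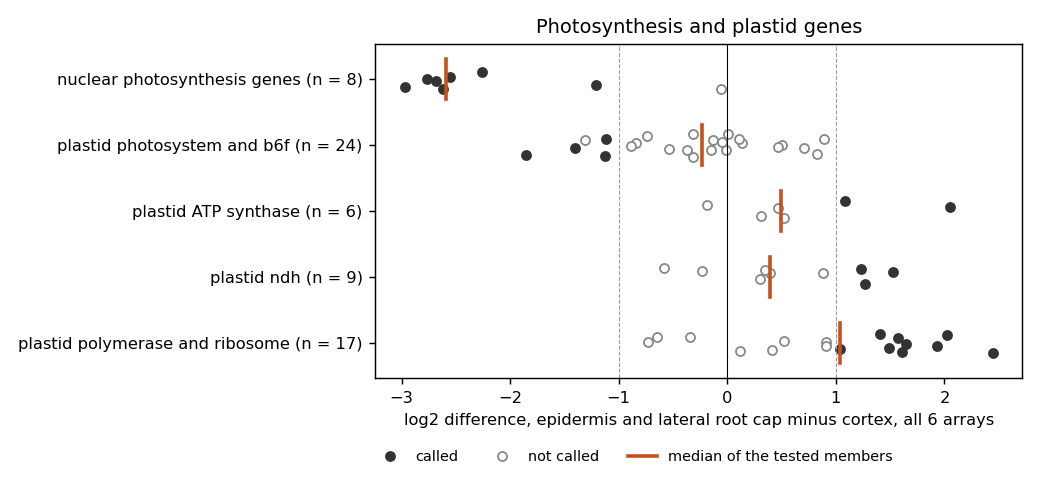
Log2 difference of each tested nuclear photosynthesis gene and of 4 groups of plastid-encoded genes, epidermis with lateral root cap minus cortex, with all 6 arrays; filled points are called, open points are not, and the orange bar is the median. All but 1 of the nuclear genes lie left of -1, and the called polymerase and ribosome genes lie right of 1.

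Wall-modifying families had members on both sides. Expansins, which let the wall extend at low pH, had 5 higher and 2 lower genes among 12, and 6 higher and 2 lower without replicate 2. The lower count was 1 without epidermal replicate 1 and 3 without epidermal replicate 3. With all 6 arrays, the 2 lower of 12 were near the share of all named genes, 16.4%, and 17.4% of all named genes were higher. Besides the hair expansins, EXPA4 had 7.20, 6.04 and 7.26 in epidermal samples, against 4.62, 4.54 and 4.65 in cortex samples, and EXLA2 had 8.40, 7.42 and 8.89, against 6.45, 5.61 and 6.46. EXPA8 was the opposite, with 7.68, 6.38 and 7.72, against 9.47, 9.14 and 8.88. EXPA15 had 8.28, 10.49 and 8.11, against 7.17, 6.31 and 6.60, and its call ended without cortex replicate 2 or 3. Of 14 tested cellulose synthase and cellulase genes, 3 were higher, 1 was lower and 10 were not called, with a median difference of -0.15. The cellulase-like genes GH9B8 and GH9C1 were higher, at 8.12, 8.05 and 7.93 and 9.36, 9.47 and 9.94, against 4.38, 5.30 and 4.12 and 6.89, 6.41 and 7.43. CSLC12 was higher at 1.27 and GH9B5 lower at -1.01, and both calls ended without some single arrays.

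Genes that add acetyl groups to wall polysaccharides, the TBL family, were divided: 8 were lower and 1 was higher among 19 in the epidermal sort and 10 were not called, and 11 lower and 2 higher without replicate 2; the higher count was 2 also without epidermal replicate 1. TBL41 had 6.89, 8.75 and 7.90 in epidermal samples, against 11.07, 11.54 and 11.39 in cortex samples. TBL19 had 4.59, 5.30 and 4.10, against 7.61, 7.62 and 7.60, and TBL37 had 6.56, 10.24 and 7.99, against 11.92, 11.53 and 11.85. Xyloglucan-modifying enzymes had 4 lower and 1 higher gene among 9, and 5 lower and 0 higher without replicate 2, led by XTH16 (-2.24) and EXGT-A3 (-2.14). XTH26, the higher one at 1.34, was called neither without epidermal replicate 2 nor without epidermal replicate 1 or any single cortex array. Under a pseudocount of 64 the lower count was 2.

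Class III peroxidases, secreted enzymes that cross-link or loosen the wall, had 5 higher and 7 lower genes among 35. These counts were near the shares of all named genes, 17.4% higher and 16.4% lower. AT3G49960 had 7.09, 9.24 and 7.97 in epidermal samples, against 4.16, 4.95 and 4.13 in cortex samples (difference 3.69, adjusted p = 0.0014). AT5G15180 had 5.31, 6.19 and 5.38, against 11.21, 11.57 and 11.43 (difference -5.77, adjusted p = 4.5e-05). AT4G30170 was among the most abundant genes in both layers, with 10.43, 12.04 and 11.73, against 13.67, 13.67 and 13.56. Without epidermal replicate 2 the family had 8 higher and 10 lower genes. The lower count was 4 without epidermal replicate 1 and 3 without cortex replicate 2 or 3, and with the deposited scaling 8 genes were higher.

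Nitrate and peptide transporters of the NPF family had 4 lower and 0 higher genes among 6 in the epidermal sort, and 5 lower without replicate 2. AT2G26690 had 5.19, 7.80 and 5.06 in epidermal samples, against 9.77, 10.23 and 9.87 in cortex samples. GTR2, which imports glucosinolates, had 7.11, 6.21 and 6.92, against 9.75, 9.82 and 9.79. Its partner GTR1 had 8.75, 11.38 and 8.98, against 11.35, 11.59 and 11.76, and differed by -1.86 (adjusted p = 0.045) and by -2.70 without replicate 2; the call of GTR1 ended with epidermal replicate 1 or 3 or any single cortex array left out. SWEET17 and SWEET16, sugar carriers of the vacuole membrane, had 6.63, 6.39 and 7.52 and 6.69, 6.41 and 6.79, against 9.08, 9.12 and 9.27 and 8.71, 8.65 and 8.42. Of 6 tested SWEET genes 3 were lower and 0 higher, and 3 lower and 1 higher without replicate 2. Tetraspanins, membrane proteins that organise other proteins in patches, had 5 lower and 1 higher among 9 in both fits. TET8, known from extracellular vesicles, had 8.98, 11.01 and 9.53, against 12.01, 12.17 and 12.04. The lower tetraspanin count was 3 without epidermal replicate 1 or 3 and 2 without cortex replicate 2 or 3, where the higher count was 0.

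Because all samples had been kept without sulfur, the genes of sulfur metabolism were of interest. APS3 and APS4, both isoforms of the first enzyme of sulfate assimilation, went in opposite directions. APS3 had 9.79, 10.77 and 9.84 in epidermal samples, against 8.35, 8.62 and 8.70 in cortex samples (difference 1.58, adjusted p = 0.0051). APS4 had 8.56, 9.91 and 8.83, against 11.58, 11.67 and 11.34 (difference -2.43, adjusted p = 0.0014). SIR, the sulfite reductase, differed by 0.44 (adjusted p = 0.23). CBL, the cystathionine beta-lyase of methionine synthesis, had 10.51, 11.06 and 10.15, against 8.71, 8.70 and 8.51 (difference 1.93, adjusted p = 0.0012). No tested marker gene of sulfur starvation was called in either fit. BGLU28, a glucosidase gene used as such a marker, had 8.75, 11.31 and 8.42, against 8.20, 8.59 and 8.07. MGL, the methionine gamma-lyase, had 4.52, 10.43 and 4.08, against 6.60, 5.46 and 4.21. AT1G04770 had 10.14, 10.18 and 9.82, against 9.03, 9.64 and 9.38. The high values of BGLU28 and MGL on epidermal replicate 2 had no counterpart on replicates 1 and 3, and MGL was at 10.11 and 10.53 on stele replicates 2 and 3.

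Among genes of iron nutrition, AT3G13610, the hydroxylase that makes the coumarin scopoletin, had 7.66, 7.63 and 7.83 in epidermal samples, against 11.11, 11.64 and 11.34 in cortex samples (difference -3.66, adjusted p = 7.6e-05). BGLU42, which releases coumarins from their glucosides, went the other way with 9.84, 9.32 and 9.52, against 8.41, 8.28 and 8.42 (difference 1.19, adjusted p = 0.0048). PYE, a regulator of the iron response, differed by -0.25 (adjusted p = 0.62). The transcription factor bHLH115, which acts upstream in that response, had 7.94, 7.82 and 7.95, against 9.29, 9.25 and 9.28, with little spread in either group. Its relatives ILR3 and bHLH121 differed by -1.13 and -1.01, and both calls ended without epidermal replicate 1 or 3 or any single cortex array.

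Thioredoxins and glutaredoxins had 3 lower and 0 higher genes among 12, and 4 lower without replicate 2. THX, a plastid thioredoxin, had 5.43, 5.66 and 6.01 in epidermal samples, against 8.83, 9.14 and 8.64 in cortex samples (difference -3.17, adjusted p = 0.00019). Calcium-binding CML42 and CML38 differed by -2.54 and -1.56, and CML30 by 1.81. Tubulins and actins had 1 higher and 2 lower genes among 8, and 0 higher and 3 lower without replicate 2. Their counts with all 6 arrays were near the shares of all named genes, 17.4% higher and 16.4% lower. The beta-tubulin gene TUB1 had 10.18, 9.63 and 10.54, against 12.33, 12.14 and 12.04, and TUB5 differed by -1.47. TUB7 was higher at 1.26, and its call ended without epidermal replicate 2 or cortex replicate 2. Of 2 tested wound and touch genes that protoplasting can induce, STZ was lower, with 9.09, 9.99 and 9.12, against 10.99, 11.02 and 10.88, and WRKY53 differed by -0.74; the part of the digestion in the results was not tested.

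Some of the largest differences between epidermis with lateral root cap and cortex were called only once epidermal replicate 2 was left out. AT1G33750, a terpene synthase, had 11.74, 4.97 and 10.98 in epidermal samples, against 5.34, 4.52 and 5.31 in cortex samples, a difference of 4.17 with all arrays (adjusted p = 0.061) and of 6.30 without replicate 2 (adjusted p = 2.8e-09). The multicopper oxidase-like genes sks15 and sks16 had 12.61, 6.23 and 12.67 and 11.59, 5.65 and 11.72, against 7.35, 7.29 and 7.34 and 7.27, 6.92 and 7.01. AT3G19430 had 12.82, 5.83 and 13.18, against 7.79, 7.48 and 8.62, and was at 14.14 on each columella array. In these genes replicate 2 lay within or below the cortical values. AT1G23160, of the GH3 family, hemb2, of porphyrin synthesis, the peroxidase AT5G24070 and the jacalin-type lectin AT5G35940 differed by 5.36, 4.74, 4.64 and 4.64 without it. Serine carboxypeptidases and subtilases had 1 higher and 0 lower gene among 18 with all arrays, and 8 higher and 3 lower without replicate 2. Without cortex replicate 2 there were 3 higher genes. Among all named genes, 17.4% were higher and 16.4% lower with all arrays, and 21.9% and 18.4% without epidermal replicate 2.

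The reverse also occurred. The peroxidase AT4G11290 had 4.47, 10.64 and 4.10 in epidermal samples, against 10.11, 10.47 and 10.23 in cortex samples, a difference of -3.87 with all arrays (adjusted p = 0.074) and of -5.98 without replicate 2 (adjusted p = 4.4e-10). GH3.3, which conjugates auxin to amino acids, had 6.93, 10.01 and 6.46, against 9.59, 10.59 and 10.39. AT2G37050, a leucine-rich repeat kinase, had 4.10, 10.63 and 4.37, against 7.33, 7.41 and 7.68, so that replicate 2 was above every cortex array. AT2G14900, AT2G38800, AT2G44300, AT1G52560 and AT5G65240 differed by -3.55, -3.41, -3.33, -3.32 and -3.28 without it. Over all tested probe sets, replicate 2 exceeded both other epidermal arrays by more than 2 in 389 (2.52%) and was below both by more than 2 in 387 (2.5%).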

How the data were processed

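The deposited table holds a linear signal intensity for each of 22810 probe sets, and the submitters' processing notes name MAS5 as the tool; its version, scaling target and genome build are not given in the sources used here, and detection calls were not used here. Biotin-labelled cRNA came from a 2-cycle amplification, per the labels' protocols. Here the values were quantile normalized over 15 arrays and taken as log2(signal + 16). Control probe sets, 64 in number, did not enter, and a probe set had to exceed the 40th percentile of its array on at least 2 of the 6 arrays. The remaining 15453 were fitted with limma 3.58.1 in R 4.3.3 (lmFit, eBayes with a variance trend), only the 6 arrays entering, with Benjamini-Hochberg adjustment over all of them; the self-test ran on simulated arrays. Python 3.11.15, pandas 2.3.3 and matplotlib 3.10.9 handled tables and figures. GEO's platform annotation gave 13513 probe sets 1 symbol, 503 several and 8794 none; 13436 were matched to a locus of the TAIR10.1 RefSeq table. No array held the same values as another in most probe sets. Precision is set by the 3 arrays per population.

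The members and lists were chosen with earlier results of these data known. Several lists were added, replaced or trimmed after the files or their values had been seen: the lists of class III peroxidases and ribosome biogenesis factors replaced ones that had matched other genes, and further families and the plastid groups were added. Genes were named by rule: both marker genes; in each direction the 15 largest differences called in both fits without overlap, and the 8 largest called only without epidermal replicate 2; up to 5 called members of each list by size, or all members of lists of at most 5. Of a gene with several probe sets the brightest was used. Other genes were named after their values were seen, as were genes of the added lists. Listed families with no tested member, such as MYB factors, aquaporins and receptor-like kinases, are not described. Alternatives covered scaling, pseudocount, filter, variance trend, array weights, the fit on all 15 arrays, a replicate block and each array left out.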

Additional observations from a re-analysis of the deposited data

How the results depend on the processing

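The counts of higher and lower probe sets stayed within 1.5 times those reported under each alternative tried, in both fits. With any single array left out, they ran from 2060 to 3257 higher and from 2013 to 3066 lower. A pseudocount of 64 gave 1830 higher and 1924 lower, of which 1827 and 1909 were among those reported. The deposited scaling moved the median difference of all probe sets to 0.15 and gave 3176 higher and 2356 lower, 57.4% higher among the called against 49.6%. No pairing by replicate number was seen, as deviations of same-numbered arrays correlated at -0.02, 0.01 and 0.02. With 3 arrays per group these values cannot show whether same-numbered samples were grown or sorted together. With a replicate block, 2580 were higher and 2652 lower, and 3 genes lost and 7 gained a call among those named. Of the 189 genes named by rule, 154 were called with all 6 arrays. Among these, 112 kept the call under every alternative, 35 lost it without some single array and 30 under another setting. None changed direction. Apart from those given in the report, the cause was not tested. Without epidermal replicate 2 the call of 5 ended and 20 gained one. Without a detection call, differences of genes near a level of 4 are limited by background, which was not measured here.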

Other observations

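Other families showed smaller or mixed differences between epidermis with lateral root cap and cortex. Among all named genes, 17.4% were higher and 16.4% lower with all 6 arrays. PRA1 proteins of vesicle traffic had 3 lower and 0 higher genes among 9, led by PRA8 with 7.13, 6.56 and 7.71 in epidermal samples, against 9.73, 9.79 and 9.90 in cortex samples. NET proteins, which bind actin, had 2 lower among 6: NET1B differed by -2.24 and NET1D by -1.97. The glutamate receptor-like channel gene GLR3.5 had 6.44, 5.26 and 5.97, against 7.89, 7.95 and 7.84, while GLR3.6, GLR3.3, ATGLR1.2 and GLR1.4 were not called, at 0.97, -0.23, -0.37 and -0.80. The peptide hormone gene RALFL33 had 7.46, 8.98 and 8.39, against 10.70, 10.02 and 10.14, a difference of -2.01. IQD genes, of calmodulin-binding scaffold proteins, had 2 higher and 3 lower members among 12, and 2 higher and 6 lower without epidermal replicate 2. IQD16 and IQD26 differed by 1.98 and 2.11, and IQD19, IQD22 and iqd32 by -1.57, -1.18 and -1.10. The lower IQD count was 0 without epidermal replicate 1 or any single cortex array and 2 without epidermal replicate 3, where 3 were higher. WES1, of the GH3 family, had 8.04, 9.10 and 8.72, against 7.13, 6.91 and 7.29, and GH3.17 of the same family differed by -1.62, a call that ended without any single cortex array. The auxin response genes had 1 higher and 1 lower among 9, and 2 higher and 3 lower without epidermal replicate 2. With all 6 arrays, the IQD and auxin response counts were near the shares of all named genes. The starch genes APL4 and SBE2.2 differed by 1.21 and 1.05; neither was called without epidermal replicate 1 or without cortex replicate 2, nor APL4 without epidermal replicate 3 or cortex replicate 1, nor SBE2.2 without cortex replicate 3.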
